A study of Mus musculus with 32 samples.

Results

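Atp7a, Cp and Steap4 are the copper handling and metalloreductase genes described here, 3 of the 10055 genes found in the tables of 4 organs. They were matched by gene symbol in liver, duodenum, jejunum and ileum, and they appeared in 6 of the 12 possible pairs of gene and organ. Atp7a was in the tables of liver, jejunum and ileum, Cp was in the liver table only, and Steap4 was in the tables of duodenum and jejunum. The tables list a gene only where its unadjusted p-value was under 0.05 for Khk knockout (KO) against wild type (WT), so a gene's absence from a table says only that it did not pass that threshold there or was not tested. The 3 genes were chosen with this contrast known. Their differences between KO and WT are therefore a description. Where one of them is said to be called or not, that is its place in a fit of the whole table, and it supports nothing about these genes.

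The study measured messenger RNA by bulk RNA sequencing in male WT mice and male mice lacking ketohexokinase (Khk), the enzyme that takes up fructose into metabolism by phosphorylating it, and asked how this enzyme bears on iron homeostasis. There were 8 groups, WT and Khk KO in each organ, with 4 libraries per group and 32 in all. Age, diet, strain, the knockout allele and any sharing of mice between organs are not given in the sources used here. Nor do the labels say that the 4 libraries of a group came from separate animals, so the p-values given for gene lists measure only the spread between these libraries. In bulk tissue, fewer cells of a type and less RNA per cell cannot be told apart.

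Copper and iron handling are linked through oxidation and reduction. Atp7a is a copper-transporting ATPase that carries copper out of the enterocyte toward the blood and loads it onto copper enzymes in the secretory pathway, and its close relative Atp7b does the corresponding work in hepatocytes. Cp encodes ceruloplasmin, a copper-containing ferroxidase that the liver secretes into plasma, where it oxidises iron for binding to transferrin. Steap4 is a membrane metalloreductase that reduces ferric iron and cupric copper, and it is best known from adipose tissue and inflammation. In the intestine, Atp7a is a known target of hypoxia-inducible factor 2 alpha in iron deficiency, and Cp is a known acute-phase gene in liver.

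The stretches just upstream of the 3 genes are shown because these known controls act through short DNA motifs. They come from RefSeq on build GRCm38.p6, plus strand. They end before the RefSeq start and before the gene start in the authors' tables, whichever comes first. Capitals mark every match, on either strand, to the hypoxia response core ACGTG, the STAT motif TTCNNNGAA, the C/EBP motif TTGCNNAA, or the metal response cores TGCACNC and TGCGCNC.
Atp7a, chrX:106026974-106027223: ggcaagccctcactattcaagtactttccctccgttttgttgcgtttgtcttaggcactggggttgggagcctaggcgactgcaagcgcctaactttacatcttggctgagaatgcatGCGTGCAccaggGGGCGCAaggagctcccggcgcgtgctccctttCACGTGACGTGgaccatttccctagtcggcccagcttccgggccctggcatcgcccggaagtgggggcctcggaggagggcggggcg
Cp, chr3:19956804-19957053: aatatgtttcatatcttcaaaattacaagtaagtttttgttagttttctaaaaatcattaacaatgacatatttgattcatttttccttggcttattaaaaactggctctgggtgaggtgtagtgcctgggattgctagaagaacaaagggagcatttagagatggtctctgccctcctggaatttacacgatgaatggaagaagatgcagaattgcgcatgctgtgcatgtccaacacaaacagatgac
Steap4, chr5:7960222-7960456: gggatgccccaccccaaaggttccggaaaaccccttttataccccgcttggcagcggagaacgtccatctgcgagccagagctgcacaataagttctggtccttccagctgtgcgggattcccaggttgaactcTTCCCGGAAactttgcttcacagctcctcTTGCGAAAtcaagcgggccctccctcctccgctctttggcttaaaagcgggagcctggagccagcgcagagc
The Atp7a stretch held 3 matches of the hypoxia response core, 2 of which overlap because the core was read on opposite strands, and 1 match of each metal response core. The Steap4 stretch held 1 STAT and 1 C/EBP match. The first Cp stretch held 0 matches, and the 250-base window before a further RefSeq start inside Cp, not printed, held 1 C/EBP match. Of 32851 windows of 250 bases upstream of mouse genes, 16.6% held the hypoxia core, 7.02% the STAT motif, 9.56% the C/EBP motif, and 10.4% and 12.5% the metal response cores ending in CACNC and CGCNC. A match is a match of letters and shows no binding.

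The labels were first checked against Khk itself. Normalised counts of Khk, which are read counts divided by the authors' size factor for each library, were lower in all 4 KO libraries than in all 4 WT libraries of each organ. The WT mean was 9.04 times the KO mean in liver, and in the intestine, from duodenum to ileum, 21.8, 10.8 and 15.0 times. Per library, the genes of the liver table held 7505439 to 14331517 reads and those in ileum 6531593 to 9149003. The shorter tables held fewer, 1722220 to 3549978 for duodenum and 3053896 to 4325568 for jejunum. The WT library numbered 1 stood apart in several organs, without the labels saying whether this was 1 mouse. It had the highest WT count of Khk in each part of the intestine. In liver its count of Saa1, an acute-phase gene, was 375, inside the KO range of 369 to 826 and far below the 3547 to 6496 of the other 3.

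Atp7a (ENSMUSG00000033792; chrX:106027276-106124926, plus strand) had a higher mean in KO than in WT in each of the 3 tables that held it. The KO mean was 4.96 times the WT mean in ileum, 3.93 times in liver and 2.10 times in jejunum. In ileum the 4 KO libraries had 562, 603, 861 and 601 normalised counts and the 4 WT libraries had 139, 71.0, 161 and 158. Every KO library was thus above every WT library, with a wide gap between the groups, and KO replicate 3 was the highest. The means were 657 ± 137 in KO and 132 ± 42.0 in WT (SD, n = 4 each), and the fitted log2 fold change was 2.31 ± 0.25 (SE).

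In liver, where Atp7b is the principal copper ATPase, Atp7a was scarce in both genotypes. The KO libraries had 68.1, 82.4, 124 and 87.2 normalised counts and the WT libraries had 52.5, 7.57, 5.29 and 26.6. The groups did not overlap, but WT replicate 1 lay close to the KO libraries, while WT replicates 2 and 3 each rested on 7 reads. The means were 90.4 ± 23.7 in KO and 23.0 ± 21.9 in WT (SD, n = 4 each), with a log2 fold change of 1.99 ± 0.57 (SE). WT replicate 1 had 4.00 times as many as the other 3 averaged. Without it the KO mean was 6.87 times the WT mean and the log2 fold change was 2.78.

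In jejunum the KO libraries had 148, 191, 201 and 330 normalised counts of Atp7a and the WT libraries had 50.2, 124, 72.4 and 167. The groups overlapped: 3 of the 4 KO libraries were above every WT library, and KO replicate 1 was below WT replicate 4. The means were 218 ± 78.6 in KO and 104 ± 52.7 in WT (SD, n = 4 each), with a log2 fold change of 1.07 ± 0.39 (SE). WT replicate 1 was the lowest library here, while the WT library of that number was the highest in liver.

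**Figure D1:**
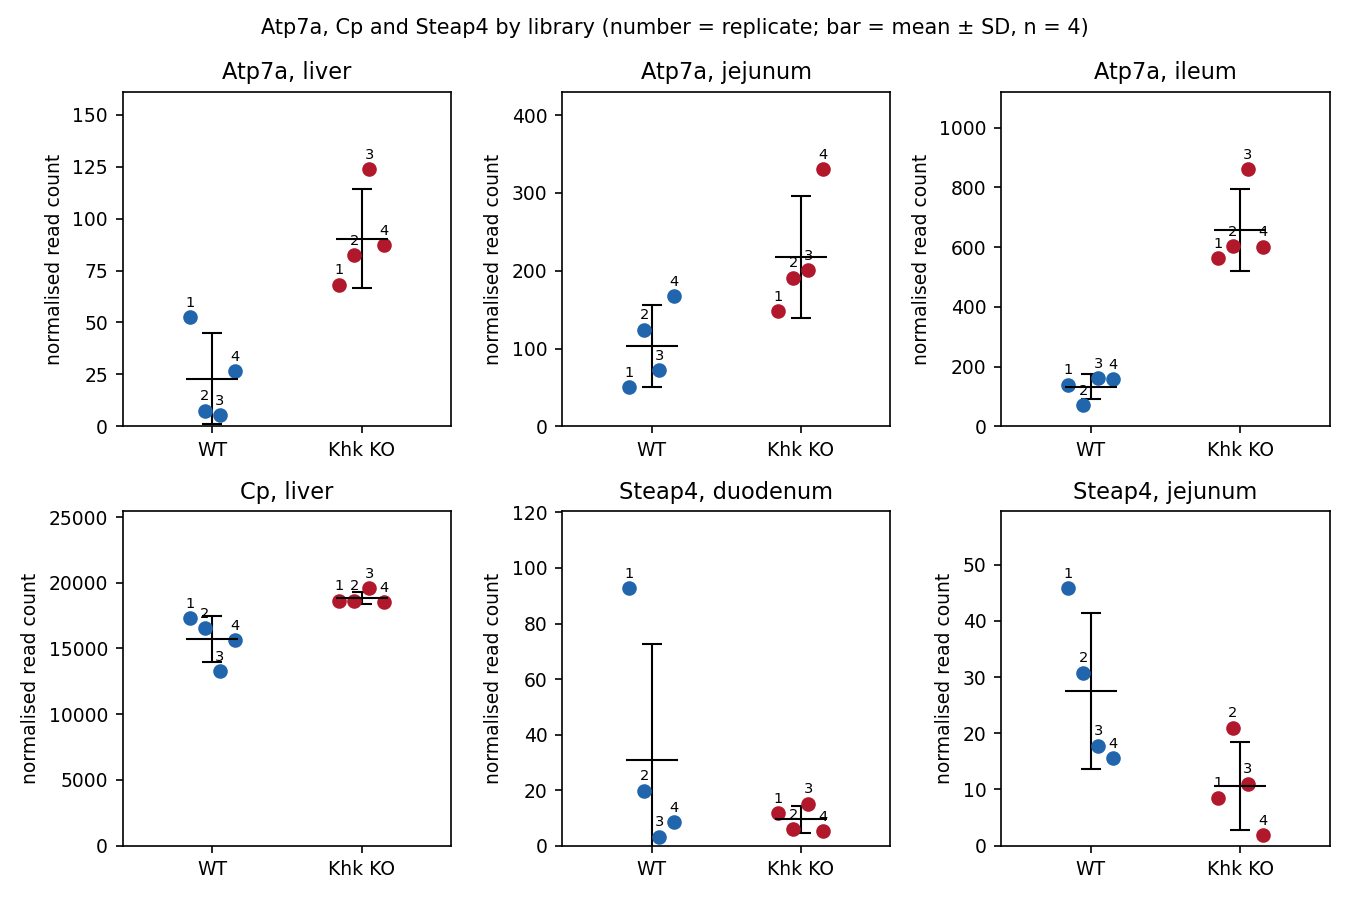
Normalised read counts of Atp7a, Cp and Steap4 (vertical axes, each from 0) in WT and Khk KO libraries of the organs whose tables hold them. Each numbered point is 1 library, and bars are the mean ± SD of 4, with the lower end not drawn below 0; KO and WT points are apart for Atp7a in liver and ileum and for Cp, and overlap in the other 3 panels.

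Read per length, Atp7a levels overlapped between the organs in WT, and ileum stood above the others in KO. On the authors' FPKM scale, which divides by gene length and library size, the WT mean was 0.724 ± 0.229 in ileum, 0.696 ± 0.350 in jejunum and 0.224 ± 0.210 in liver (SD, n = 4 each). The KO mean was 3.61 ± 0.739 in ileum, 1.47 ± 0.534 in jejunum and 0.877 ± 0.237 in liver. WT ileum, at 0.396 to 0.895, lay within the range of WT jejunum, at 0.348 to 1.12, and WT liver, at 0.0528 to 0.507, overlapped both. In KO the lowest ileum library, at 3.10, was above the highest jejunum library, at 2.24, and jejunum and liver overlapped. The organ tables were normalised separately, so these levels across organs were not tested.

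At an adjusted p of 0.05, Atp7a was among the genes called in liver and ileum, and not in jejunum, in edgeR's quasi-likelihood test and in the authors' deposited table. This makes 2 of the 6 pairs of gene and organ by either test. All genes tested means here the genes over which the authors adjusted. EdgeR was fitted only to genes in the tables, and the others count as not called. Of all genes tested, edgeR called 15.4% in liver and 9.89% in ileum, but 0.0101% in jejunum and 0.0064% in duodenum. The authors called 23.9% for liver, 15.6% for ileum, 0.759% for jejunum and 0.224% for duodenum. Because the genes were chosen from this contrast, nothing is read from that count. Among the genes in the tables, 34.3% in liver and 36.9% in ileum had every KO library above every WT library.

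Gene length moved with the genotype difference over the tables as a whole, and Atp7a is a long gene of 8734 bases. Protein-coding genes that averaged 50 normalised counts or more and were higher in KO had a median length of 8029 bases in liver, 8669 in jejunum and 8319 in ileum. Those that were lower in KO had a median of 2538, 2321 and 2489 bases in the same order. A smooth trend of log2 fold change against length stood at 0.70 in liver, 0.40 in jejunum and 0.50 in ileum at the length of Atp7a. With that trend taken out, the log2 fold change of Atp7a was 1.82 ± 0.21 in ileum, 1.43 ± 0.48 in liver and 0.68 ± 0.32 in jejunum (SE). These were smaller than before in each organ and still above 0, and Atp7a was no longer called by edgeR in liver. In the same fits, calls over all genes fell from 2807 to 785 in liver and from 1585 to 476 in ileum. The trend was drawn only from the genes of each table, all with an unadjusted p under 0.05, so its height over all genes is not known. The part of length in these differences was not tested.

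Cp (ENSMUSG00000003617; chr3:19957054-20009145, plus strand), the secreted ferroxidase, was abundant in liver and differed little between genotypes. The KO libraries had 18643, 18650, 19570.2 and 18503 normalised counts and the WT libraries had 17297, 16562, 13264 and 15650. Every KO library was above every WT library, and the 3 other KO libraries sat close together below replicate 3. The KO mean was 18841 ± 490.5 and the WT mean 15693 ± 1754 (SD, n = 4 each), a ratio of 1.20 and a log2 fold change of 0.26 ± 0.11 (SE). Cp was not called by edgeR or in the authors' deposited table. In FPKM, Cp stood at 141 ± 14.3 in WT liver, against 0.224 ± 0.210 for Atp7a in the same libraries.

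The direction of the Cp difference turned when a trend on gene length or GC content was taken out. Cp has 9566 bases, and at that length the liver trend stood at 0.75, above the log2 fold change of Cp itself. With the length trend taken out, the log2 fold change of Cp was -0.50 ± 0.11 (SE), and with the GC trend taken out it was -0.19 ± 0.11. Both trends were drawn only from the genes of the liver table, all with an unadjusted p under 0.05. Unchanged genes are missing from them. The height of the trends over all genes is therefore not known, nor is the direction of Cp with such a trend taken out. The part of length or GC content in the difference was not tested. Hps3, on the other strand, covers 1.13% of the exon bases of Cp.

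**Figure D2:**
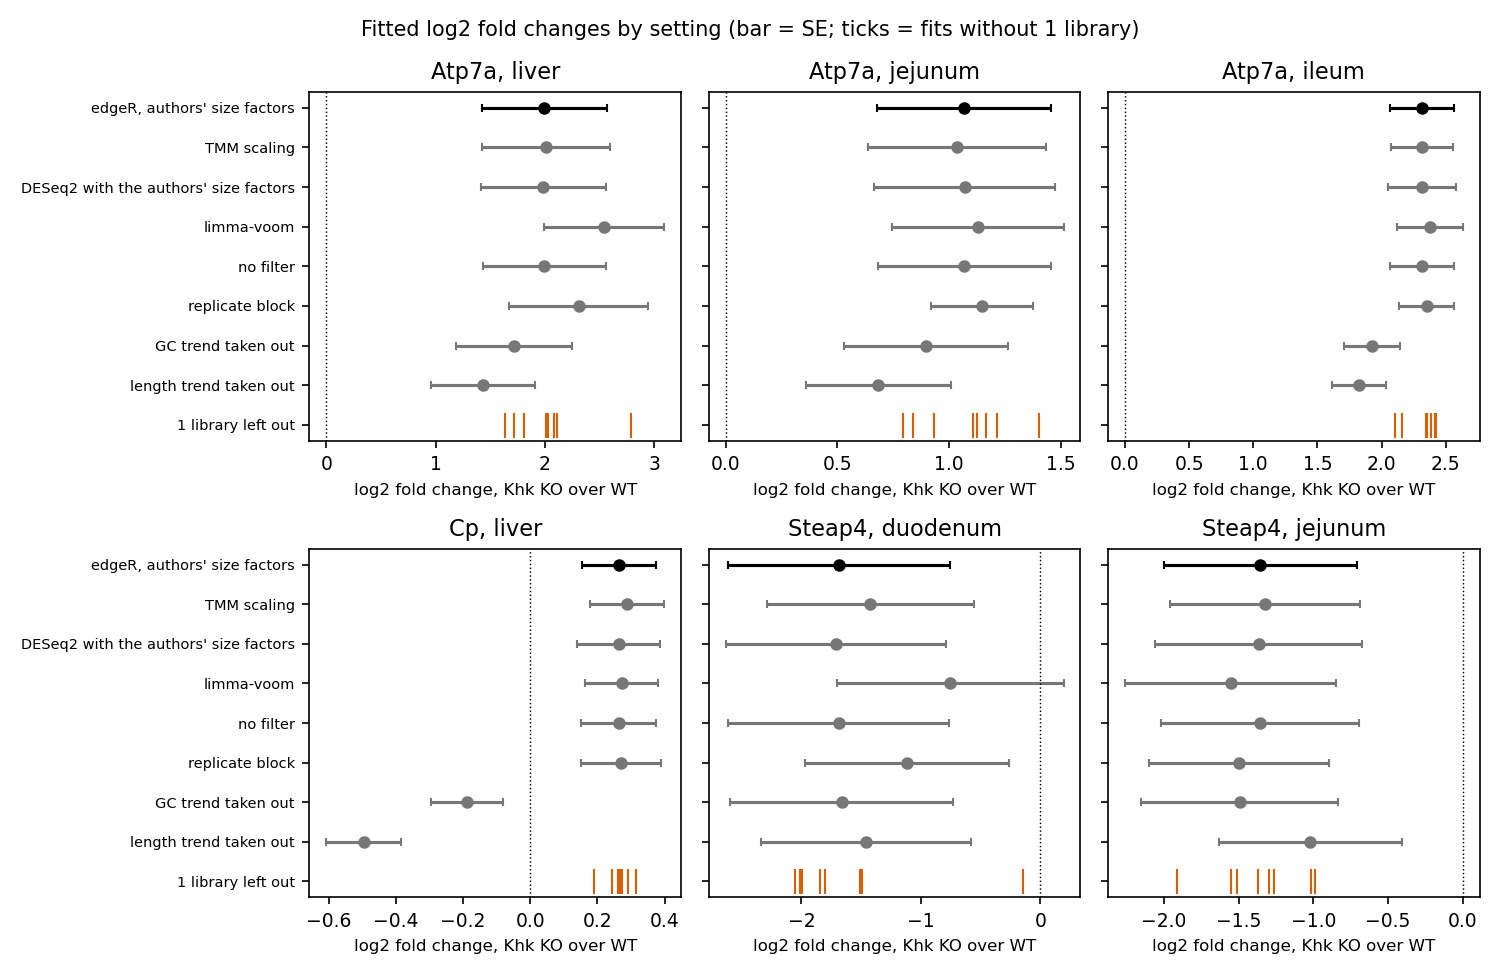
Fitted log2 fold changes, KO over WT (horizontal axes), for the 6 pairs of gene and organ under each setting (vertical axis), with SE as bars and with ticks for fits that leave out 1 library. Atp7a stayed above 0 and Steap4 below 0 in every setting shown, while Cp in liver moved from 0.26 to -0.50 with the length trend taken out.

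Steap4 (ENSMUSG00000012428; chr5:7960457-7982213, plus strand), the metalloreductase, was scarce in the intestine and had a lower mean in KO in both tables that held it. In jejunum the KO libraries had 8.57, 21.0, 11.1 and 1.90 normalised counts and the WT libraries had 45.8, 30.8, 17.8 and 15.6. In that organ 3 of the 4 KO libraries were below every WT library, and KO replicate 2 lay among the WT values. The means were 10.6 ± 7.90 in KO and 27.5 ± 13.9 in WT (SD, n = 4 each), from 2 to 41 reads per library, with a log2 fold change of -1.35 ± 0.65 (SE).

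In duodenum the lower KO mean of Steap4 rested on 1 WT library. The KO libraries had 11.6, 5.88, 15.1 and 5.24 normalised counts and the WT libraries had 92.6, 19.8, 3.25 and 8.36. The groups overlapped, and the lowest of the 8 values was WT replicate 3. The means were 9.45 ± 4.71 in KO and 31.0 ± 41.7 in WT (SD, n = 4 each), with a log2 fold change of -1.69 ± 0.93 (SE). WT replicate 1, with 90 reads against 3 to 20 in the other WT libraries, had 8.85 times as many as the other 3 averaged, and without it the log2 fold change was -0.14. In FPKM, Steap4 stood at 0.478 ± 0.643 in WT and 0.146 ± 0.0727 in KO duodenum, and at 0.517 ± 0.271 in WT and 0.198 ± 0.148 in KO jejunum.

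Adipocyte markers were highest in the same WT library of jejunum as Steap4. Of the 7 markers on the list, 5 were in the jejunum table (Retn, Adipoq, Cfd, Fabp4 and Plin1), each with a lower mean in KO. Their summed normalised count was 3007 in WT replicate 1, 313 to 1039 in the other WT libraries and 292 to 577 in KO. This peak was not particular to adipocyte markers. Sums of smooth muscle, goblet cell, hepatocyte and enterocyte markers were also highest in that library, and those of Paneth and erythroid markers were not. For smooth muscle the sum was 22433, against 9428 to 14575 in the other WT libraries. In duodenum 0 of the 7 adipocyte markers were in the table, so they give no value there. Of 6 neutrophil markers 0 were in either table, and of 12 macrophage markers 0 were in the jejunum table and 4 in the duodenum table, at 368 to 403 in KO and 219 to 324 in WT. The part of these cells in the Steap4 values was not tested.

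The wider copper and metalloreductase group, a list of 47 genes that includes the 3 above, held genes moving in both directions in liver. Of the 47, 17 were in the liver table, and 10 passed an adjusted p of 0.05 in edgeR's quasi-likelihood test, 4 higher and 6 lower in KO. The 4 include Atp7a, which was chosen with this contrast known. All genes of the liver table had an unadjusted p under 0.05, and of its 6375 genes 1332 were called higher and 1475 lower. Over the 18225 liver genes that the authors adjusted over, in the table or not, 7.31% were called higher and 8.09% lower. EdgeR itself was fitted to 5738 genes of the table. The median log2 fold change of the fitted list genes was -0.12, against 0.30 over all genes fitted. The 10 calls became 0 without KO replicate 1, 2 or 4, and 2 without KO replicate 3 or WT replicate 2 or 4. They became 8 without WT replicate 3 and 15 without WT replicate 1. Calls over all liver genes moved likewise, from 2807 to 87, 19, 537 and 118 without KO replicates 1 to 4 in turn. Without WT replicates 1 to 4 in turn they were 4893, 328, 2233 and 298.

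Among the higher genes of liver, besides Atp7a, were the copper-binding coagulation factors F5, with 15161 ± 421 normalised counts in KO and 6853 ± 2894 in WT, and F8, with 426 ± 17.7 and 233 ± 51.6 (SD, n = 4 each). Their log2 fold changes were 1.15 and 0.87. Among the lower genes were Atox1, the chaperone that hands copper to Atp7a and Atp7b, with 870 ± 48.5 in KO and 1576 ± 321 in WT, and the mitochondrial copper assembly factor Cox19, with 483 ± 51.1 and 793 ± 152. Cyb561d2, a cytochrome b561 relative, had 90.6 ± 14.4 in KO and 204 ± 78.7 in WT. The log2 fold changes of Atox1, Cox19 and Cyb561d2 were -0.86, -0.71 and -1.18. The other 4 genes called had log2 fold changes of -0.64 to 0.58.

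The authors' deposited table called 14 genes of the list in liver, adding 4 to those of the edgeR fit, and DESeq2 also called 14. The added genes included Commd1, a regulator of copper export from hepatocytes, with 150 ± 5.69 normalised counts in KO and 251 ± 102 in WT. Atp7b had 692 ± 69.4 in KO and 490 ± 77.3 in WT (SD, n = 4 each), a log2 fold change of 0.50 (adjusted p = 0.057 in edgeR, and 0.0179 in the authors' deposited table). Its KO libraries were all above its WT libraries. Moxd1, a monooxygenase relative, had at most 28.5 normalised counts in any library, and the authors' deposited table gives its log2 fold change as -2.75.

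In ileum 13 of the 47 were in the table and 5 passed in edgeR, 2 higher, Atp7a among them, and 3 lower. Of the 5187 genes in the ileum table, 1045 were called higher and 540 lower, which is 6.52% and 3.37% of all genes tested. Xiap, a ubiquitin ligase that acts on copper chaperones, rose with Atp7a, from 1899 ± 503 in WT to 3077 ± 249 in KO (SD, n = 4 each). Aoc1, the copper-containing diamine oxidase of the gut, fell from 12733 ± 2560 to 8128 ± 1430, with a log2 fold change of -0.65. Cox19 and Ccs, the copper chaperone of superoxide dismutase, fell by 0.59 and 0.49 on the log2 scale. The authors' deposited table called 8, adding Mt1, Atox1 and Sod1, the copper-zinc superoxide dismutase, all lower in KO. Only Atp7a of the list kept its edgeR call in ileum with the length trend taken out, where calls over all ileum genes fell from 1585 to 476. The 5 calls became 1 without KO replicate 1, 2 or 4 or WT replicate 2 or 3, and 2 without KO replicate 3. They became 7 without WT replicate 1 and 8 without WT replicate 4. Calls over all ileum genes went from 1585 to 492, 452, 526 and 482 without KO replicates 1 to 4 in turn. Without WT replicates 1 to 4 in turn they were 2578, 505, 865 and 2273.

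In jejunum 7 and in duodenum 4 of the 47 were in the tables, and 0 passed an adjusted p of 0.05 in edgeR, DESeq2, limma-voom or the authors' table. At an unadjusted p under 0.05 in edgeR there were 5 of 7 fitted in jejunum and 2 of 3 fitted in duodenum. Over all genes fitted these were 1754 of 2045 and 914 of 1406. The tables hold only genes with an unadjusted p under 0.05, so nothing is read from such counts. Jejunal Atp7b had 697 ± 86.5 normalised counts in KO and 540 ± 65.3 in WT (SD, n = 4 each), with overlapping groups. Heph, the ferroxidase of the enterocyte, the copper importer Slc31a1 and the Steap4 relatives Steap1, Steap2 and Steap3 were in none of the 4 tables.

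Metallothioneins, small proteins that bind copper and zinc, had lower means in KO intestine, with WT replicate 1 highest. Mt1 had 3908 to 5317 normalised counts in KO duodenum, and 30073 in WT replicate 1 against 5412 to 10397 in the other WT libraries. In jejunum it had 2272 to 3792 in KO, and 12920.1 in WT replicate 1 against 3128 to 6190 in the other WT libraries. In ileum the KO libraries had 972 to 1813 and the WT libraries 1476 to 4652. The groups were apart in duodenum and overlapped in jejunum and ileum. Mt1 was not in the liver table. Mt2, seen only in the duodenum table at 5.03 ± 2.41 in KO and 27.5 ± 30.7 in WT, shares 73.5% of its exon bases with Gm45774 on the other strand, and the strand of the counting is not given in the sources used here.

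Within the list, direction and gene length went together. In liver the 8 genes higher in KO were 6505 to 9905 bases long and the 9 lower genes 541 to 5936 bases, with no overlap. In ileum the 4 higher genes were 4213 to 9469 bases long and the 9 lower genes 541 to 3970 bases. With the length trend taken out, 4 genes passed in liver (F5 higher and Commd1, Cp and Sod1 lower), of which F5 and Sod1 were among the 10 called before, and 1 in ileum (Atp7a). Calls over all genes also fell in these fits, from 2807 to 785 in liver and from 1585 to 476 in ileum. Whether length accounts for these directions was not tested.

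**Figure D3:**
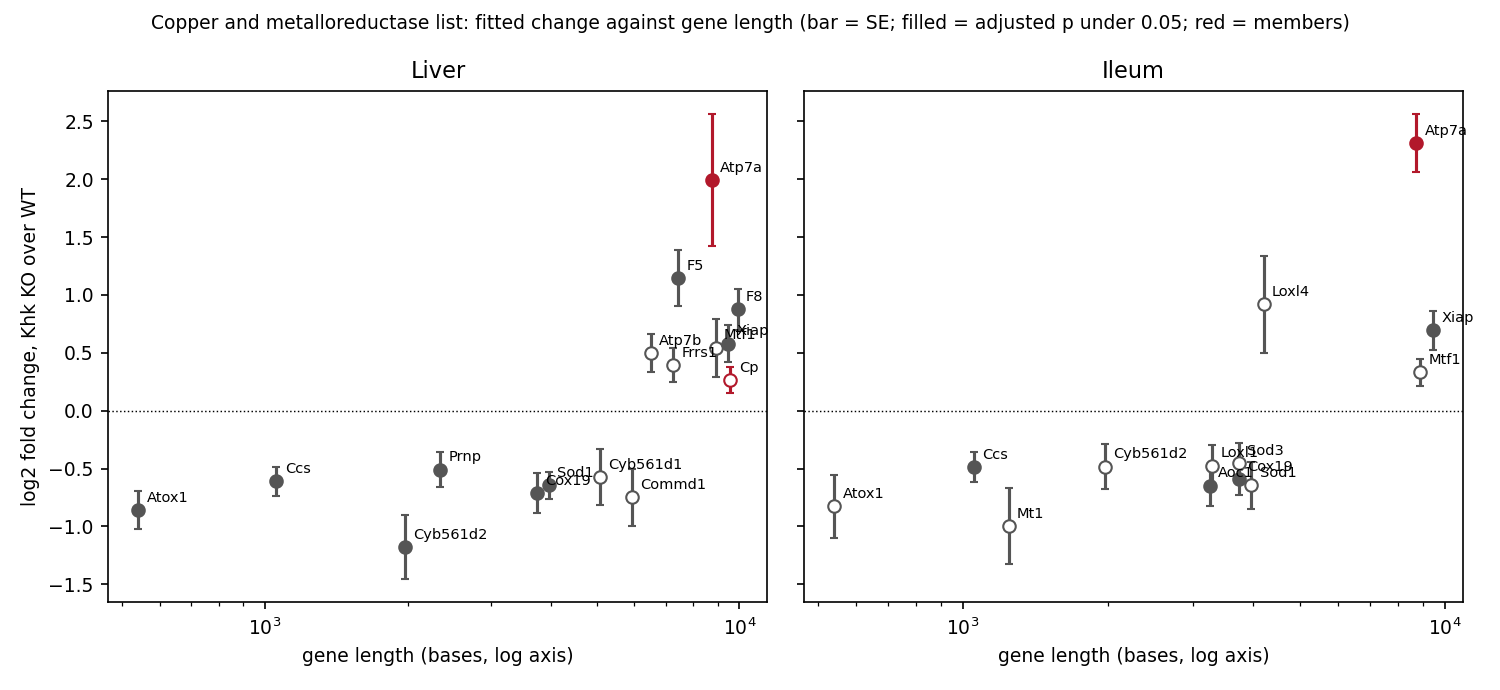
Fitted log2 fold change, KO over WT (vertical axis, bars SE), against gene length in bases (horizontal log axis) for the copper and metalloreductase list in liver and ileum. Filled points passed an adjusted p of 0.05 in edgeR and red points are Atp7a and Cp; every liver gene above 0 is at least 6505 bases long, and Atp7a is the highest point in both organs.

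Hypoxia-regulated genes were examined because Atp7a and Cp belong to them. In liver 10 of 22 list genes were in the table and 8 passed in edgeR, 6 higher and 2 lower in KO. The 6 include Atp7a, which was chosen with this contrast known. Of the 6375 genes in the liver table, 1332 were called higher and 1475 lower, which is 7.31% and 8.09% of all genes tested. Atp7a and Pfkfb3, which makes the allosteric activator of phosphofructokinase, had the highest log2 fold changes, 1.99 and 2.12, followed by the transferrin receptor Tfrc at 0.83. The lower genes, Bnip3 and Ldha, had log2 fold changes of -0.78 and -0.59. The median of the list was 0.55, against 0.30 over all genes fitted. The 8 higher genes of this list in the liver table were 4285 to 9566 bases long and the 2 lower genes 2265 and 3310 bases, and once the length trend was removed 2 of the 8 were still called, Pfkfb3 at 1.54 and Vegfa at 0.50, and Cp was called lower. At most 1 passed without any 1 KO library or WT replicate 2 or 4, 7 without WT replicate 3 and 10 without WT replicate 1. Calls over all liver genes changed in the same fits, as given for the copper list, and fell from 2807 to 785 with the length trend removed.

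In ileum 7 of the 22 were in the table, and Atp7a and Pfkfb3 passed, with log2 fold changes of 2.31 and 0.92, where 6.52% of all genes tested were called higher and 9.89% either way. With the length trend taken out, Atp7a and Ndrg1 (-0.70) passed and Pfkfb3 did not. In the fit without a trend, leaving out KO replicate 2 or 3 or WT replicate 2 or 3 left 1 gene called. Without WT replicate 4 it was 3, and without WT replicate 1 it was 4. Calls over all ileum genes changed in the same fits, as given for the copper list, and fell from 1585 to 476 with the length trend taken out. In jejunum 3 and in duodenum 2 of the 22 were in the tables, and 0 passed in edgeR, DESeq2, limma-voom or the authors' table. At an unadjusted p under 0.05 in edgeR there were 2 and 0, against 1754 of 2045 and 914 of 1406 over all genes fitted. The duodenal metalloreductase Cybrd1 and the factors Hif1a and Egln3 were in none of the 4 tables.

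Acute-phase genes, the group to which Cp and Steap4 belong, were mostly lower in KO liver, unlike Cp. Of 29 list genes 14 were in the liver table and 6 passed in edgeR, all lower. Of the 6375 genes in the liver table, 1475 were called lower, which is 8.09% of all genes tested. The authors' deposited table called 11, of which 2 were higher and 9 lower. Either way it called 4364 of its 6375 genes, which is 23.9% of all genes tested. The serum amyloid genes Saa2 and Saa1 had 128 ± 55.5 and 607 ± 187 normalised counts in KO and 978 ± 754 and 3588 ± 2510 in WT (SD, n = 4 each). Their log2 fold changes were -2.93 and -2.56, and their groups overlapped because WT replicate 1 had 99.6 and 375. The haem-binding protein Hpx fell by 1.26 on the log2 scale. Cp was 1 of the 3 genes of this list in the liver table that were higher in KO, and those 3 were 5143 to 9566 bases long against 775 to 4831 for the 11 lower genes. With the length trend taken out, none of these 6 passed, and Cp was the 1 gene of the list called, as lower. Saa2 and Saa1 then stood at -2.36 and -1.99 (edgeR adjusted p = 0.0531 and 0.0717). In that fit, calls over all liver genes fell from 2807 to 785. At most 1 passed without any 1 KO library or WT replicate 2 or 4, and 12 without WT replicate 1, in fits where calls over all liver genes changed as well.

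Markers of some other cells moved with the acute-phase genes in liver, and others did not. Of 12 Kupffer cell and macrophage markers 8 were in the liver table, 7 with a lower mean in KO. The other, 1 marker with a higher mean, was called higher in the authors' deposited table. By edgeR 5 were called lower, where 1475 of the 6375 genes in the table, or 8.09% of all genes tested, were called lower. Their summed normalised count was 4992 to 6982 in KO and 5997 to 15048 in WT, with WT replicate 1 the lowest WT library and inside the KO range. Of 7 erythroid markers 5 were in the table, and all 5 were called lower, with sums of 2967 to 3515 in KO and 4584 to 10959 in WT, again lowest in WT replicate 1 among WT libraries. Hepatocyte markers, 5 of 9 in the table and 3 called lower, had sums of 305342 to 354272 in KO and 323904 to 465634 in WT. Of these 5, 2 had a higher mean and 3 a lower mean in KO. Sums of smooth muscle markers, 3 of 7 in the table, went the other way, at 1657 to 2556 in KO and 500 to 1371 in WT. Of these 3, 2 had a higher mean and 1 a lower mean in KO, and edgeR called 1 higher. Genes of the enterocyte list, 4 of 9, also had higher sums, at 155270 to 172361 in KO and 73430 to 147729 in WT. Singly they were split, 2 with a higher mean and 2 with a lower mean in KO. By edgeR 1 was called higher and 2 lower, where 7.31% of all genes tested were called higher and 8.09% lower. Adipocyte sums overlapped, and neutrophil sums were at most 18.2. The part of these cells in the liver results was not tested.

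In the intestine the acute-phase list gave few values. In the tables were 2 of its genes in duodenum, 5 in jejunum and 2 in ileum, Steap4 among them in the first and second, and 0 passed in edgeR. At an unadjusted p under 0.05 in edgeR there were 0, 1 and 1 genes. Over all genes fitted these were 914 of 1406, 1754 of 2045 and 4609 of 4788, in tables that hold only genes under that threshold. DESeq2 and the authors' deposited table each called 1 in ileum and 0 in duodenum and jejunum.

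The genes closest to each of the 3 were ranked by the root mean square difference of log2(normalised count + 1) over the 8 libraries of an organ, each gene centred on its own mean. For Atp7a in liver they were Ino80d, Atm and Zfp871, at 0.395, 0.407 and 0.465 among 4567 genes compared. In ileum they were Zc3h11a, Exph5 and again Zfp871, at 0.223, 0.333 and 0.337 among 3966, and in jejunum Syne1, Nr2c2 and Usp9x, at 0.245, 0.248 and 0.267 among 1618. Each of them was higher in KO, with a log2 fold change of 0.80 to 2.47, and each was 5376 to 40491 bases long. In liver each shared with Atp7a a WT replicate 1 close to KO and low WT replicates 2 and 3. The ranking used these same KO and WT libraries, for Atp7a as for Cp and Steap4. A shared direction or library pattern therefore follows from the ranking and is no further result.

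**Figure D4:**
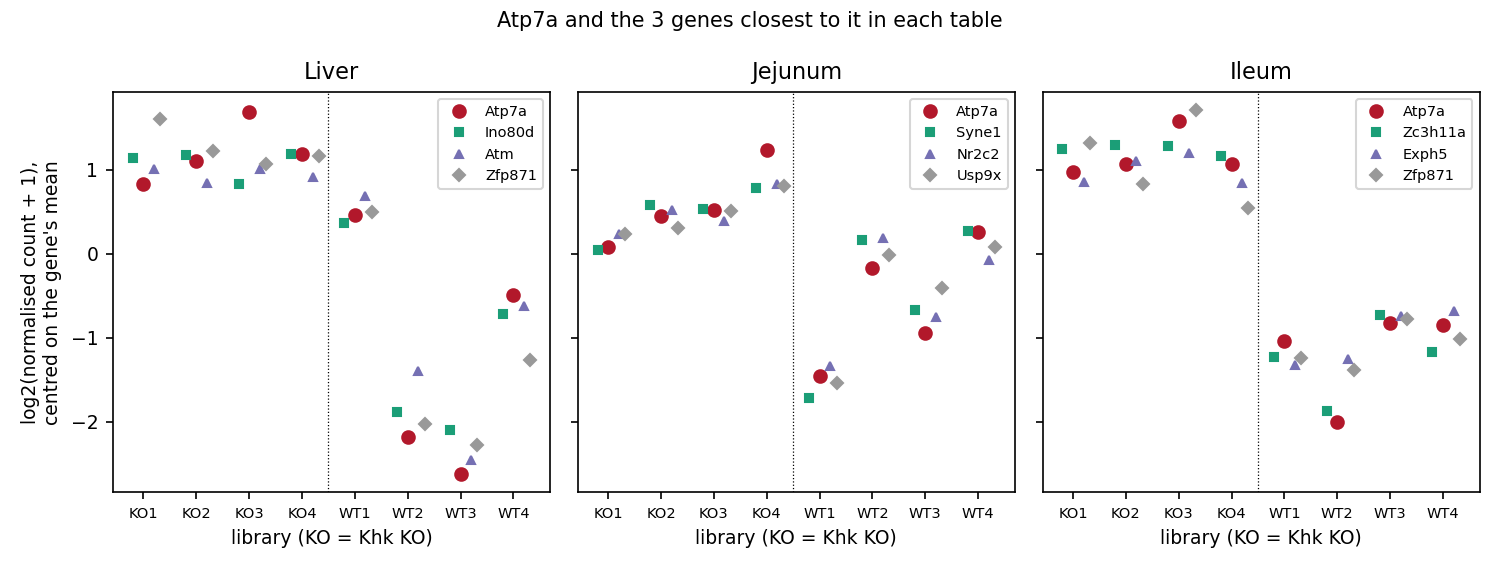
Values of log2(normalised count + 1), centred on each gene's mean (vertical axis), for Atp7a and its 3 closest genes in the 8 libraries (horizontal axis) of liver, jejunum and ileum. Each marker is 1 gene in 1 library. WT replicate 1 is the highest WT library for Atp7a in liver and the lowest in jejunum. The other genes shown follow it there, having been picked as closest over these libraries.

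For Cp in liver the closest genes were Csnk2a1, Cyp2c23 and Xylb, at 0.0536, 0.0572 and 0.0607, with log2 fold changes of 0.26 to 0.34. For Steap4 no gene was as close. The nearest in duodenum were Cfi, Hsd11b1 and G0s2, at 0.694 to 0.817, each highest in WT replicate 1, and in jejunum Vip, Phlda1 and Ifi27l2a, at 0.586 to 0.668.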

How the data were processed

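Polyadenylated RNA was sequenced from liver, duodenum, jejunum and ileum, 4 WT and 4 Khk KO libraries each. Reads were aligned with HISAT2 2.0.5 and the builds named are GRCm38 and mm10, per the submitters' processing notes. The counting tool, the annotation version and the authors' test are not given in the sources used here, and the labels' protocols leave it unclear whether the library chemistry kept the strand. The authors deposited, per organ and only for genes with p under 0.05, raw read counts, a normalised signal (the count divided by 1 size factor per library, called normalised count here), FPKM, a log2 fold change of KO over WT, a p-value and an adjusted p-value, per the file headers. An adjusted value of 1 for Steap4 in jejunum was read as not adjusted. The total depth of each library is unknown, since the tables hold only part of the genes.

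Read counts of each whole table were fitted with edgeR 4.0.16 (R 4.3.3), filterByExpr and the quasi-likelihood F test, scaled by the authors' size factors because TMM needs the unchanged genes that the tables lack. P-values were adjusted (Benjamini-Hochberg) over as many genes as the authors had used, which their own p-values and adjusted p-values give as 18225 for liver, 15615 for duodenum, 9881 for jejunum and 16034 for ileum. The SE is the log2 fold change over the square root of F. Trends on length and GC content were lowess curves (span 0.5) over the genes of a table that averaged 10 normalised counts or more. They too lack the unchanged genes, so their height over all genes is not known. Alternatives were TMM, DESeq2 1.42.0, limma-voom (limma 3.58.1), no filter, a replicate block, length and GC trends, other adjustments and leaving out each library. Simulated data with known changes were recovered for 43% (duodenum), 61% (jejunum), 68% (liver) and 79% (ileum) of genes changed by 1 on the log2 scale, and for 96%, 99%, 100% and 99% of those changed by 2, over 1420, 2062, 5760 and 4800 genes.

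The members, lists and markers were chosen with earlier results of these data known. Text names the 3 members, up to 8 called genes of the copper list per organ by size of change, 8 fixed relatives, up to 3 called genes of the hypoxia and acute-phase lists, and the 3 closest protein-coding genes that averaged 100 or more. The genes called with the trend taken out, the genes of the closing section and those named as absent, in ranges or as markers were added after their values were seen. Figures used matplotlib 3.10.9 in Python 3.11.15.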

Additional observations from a re-analysis of the deposited data

Results flagged for a closer look

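Single libraries far from the other 3 of their group were looked for in the members, Khk and the copper genes. A gap wide for the range of 4 values was found in 11 of 90 groups. Chance gives about 1 in 20 for independent groups, but these genes share the same libraries, so no comparison is drawn. Among the members the libraries apart were KO replicate 3 of ileum for Atp7a, at 861 normalised counts against 562 to 603, and KO replicate 3 of liver for Cp, at 19570.2 against 18503 to 18650. For Khk in jejunum they were KO replicate 1, at 541, low against 805 to 837, and WT replicate 1, at 13852, high against 5580 to 6647.

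WT replicate 1 was also the high library for Mt2 in duodenum, at 73.1 normalised counts, for Sod1 in jejunum, at 9915, and for Xiap in ileum, at 2653. The remaining libraries apart from their group were KO replicate 3 for Mt2 in duodenum, at 8.61, and for Aoc1 in ileum, at 10254, KO replicate 1 for Prnp in jejunum, at 421, all high, and WT replicate 4 for Cox19 in ileum, at 415, which was low.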

How the results depend on the processing

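Directions of Atp7a, Steap4 and Khk were the same in every alternative run. That of Cp turned under the trends, which were drawn without the unchanged genes. The log2 fold change of Cp in liver was -0.50 with the length trend taken out, -0.48 with length trend and replicate block, and -0.19 with the GC trend. That of ileal Atp7a was 1.82 and 1.85 with the length trend, without and with the block. Khk moved to -2.52 in liver, -3.99 and -3.97 in duodenum, -2.87 and -2.88 in jejunum and -3.36 and -3.35 in ileum in the same settings, and to -3.36 in ileum with the GC trend.

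Leaving out 1 library each moved Atp7a between 1.64 and 2.78 in liver, 0.80 and 1.40 in jejunum and 2.10 and 2.42 in ileum. Cp lay between 0.19 and 0.31, and Steap4 between -2.06 and -0.14 in duodenum and -1.91 and -0.99 in jejunum. The edgeR call of Atp7a in liver held without WT replicate 1 and was lost without any other library. In each of the fits where this call was lost, calls over all liver genes also fell, from 2807 to between 19 and 2233. Genes called ran from 0 to 15 (copper list), 0 to 10 (hypoxia) and 0 to 12 (acute phase) in liver, most without WT replicate 1, and from 1 to 8 and 1 to 4 (copper and hypoxia) in ileum.

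Of the copper list in liver, 4 genes were called with the length trend taken out and 3 with the block added. In ileum the 5 calls became 9 with DESeq2 under either scaling, 12 when adjusted over the table's genes, 8 by the authors' adjusted p, 2 with the GC trend, and 1 with the length trend, the block or both. Of the hypoxia list, the 8 liver calls became 3, 2 and 5 with the length trend, length trend and block, and GC trend. Its 2 ileal calls became 4 with DESeq2, 4 by the authors' adjusted p, 5 over the table's genes and 1 with the block. Of the acute-phase list, the 6 liver calls became 10 with DESeq2, 11 by the authors' adjusted p, 12 over the table's genes, 1 with the length trend (Cp, lower, which was not among the 6) and 2 with the block added. In ileum its 0 calls became 1 with DESeq2, the GC trend, the table's genes or the authors' adjusted p. Calls over all genes moved too. In liver 2807 became 785 with the length trend, 638 with the block added and 2413 with the GC trend. In ileum 1585 became 476, 281 and 935 in the same order, and 471 with the block alone. Adjusted over the table's genes, calls were 5290 in liver and 4565 in ileum, and with DESeq2's own scaling 4411 and 3520.

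Over all ileum genes, 1585 were called (1045 higher, 540 lower), and 2221 with TMM (1202 higher, 1019 lower). Correlations between KO and WT libraries of the same number were -0.27 to 0.31 over the organs. In jejunum they were 0.31, 0.05, 0.05 and 0.26, and pairs 1, 2 and 4 correlated best with their own number. The labels do not say whether the numbers mark pairs, so a call lost under the block is not read as a weaker effect. With the replicate block, Atp7a was 2.31 in liver, 1.15 in jejunum and 2.35 in ileum, Cp 0.27, and Steap4 -1.12 in duodenum and -1.50 in jejunum. Low reads limit Steap4 and liver Atp7a most, and genes outside the tables were not analysed here.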

Other observations

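Genes within 500 kb of Atp7a on chromosome X, a distance chosen after seeing the data, did not share 1 direction. Atrx, a chromatin remodeller of 21757 bases, was higher in KO than in WT in liver, jejunum and ileum, with log2 fold changes of 1.40, 0.65 and 1.06. Cox7b, a respiratory chain subunit of 1214 bases, was lower in liver and ileum, at -0.63 and -0.51. In liver the glycolytic enzyme Pgk1 was lower, at -0.50, and the magnesium transporter Magt1 was higher, at 0.43. These are values of the same fits, given without a test of position.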
